A study of Mus musculus with 31 samples.

Results

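The comparison described here is that of repeated cross-fostering with control handling in the medial prefrontal cortex of DBA mice, and it was made over the 8 arrays titled DBA_mpFC_RCF 1 to 4 and DBA_mpFC_ctr 1 to 4, of 31 in the series. The RCF group came from female DBA2/J mice whose whole litter was handed to another dam each day from postnatal day 1 to day 4, so that the pups stayed with their 4th adoptive mother until weaning at day 28. The ctr group came from female DBA2/J mice whose litters were lifted out daily over the same days and put back with their own mother. Per the labels, all animals of both groups were sampled at 12 weeks, carried no transgene, and were taken with at most 2 mice from a litter or cage. The rest of the series holds the nucleus accumbens (Nac) of the same strain and both regions of C57BL/6J (C57) mice under the same handling.

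The medial prefrontal cortex is made up of excitatory projection neurons, inhibitory interneurons and glia, and its dopamine input is known to respond to stress. Repeated cross-fostering is used as an early-life stressor that breaks the bond with a stable caregiver. The series title asks about Xlr4, a member of the X-linked lymphocyte-regulated family, which encodes nuclear proteins related to those that pair meiotic chromosomes.

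Array pairs within each group decided how many samples could be counted. DBA_mpFC_ctr 2 and 4 differed by 1.23 times the spread expected from repeated spots of 1 array, and DBA_mpFC_RCF 1 and 3 by 2.39 times, over 277 probes printed at least 5 times. The other 10 pairs of arrays within these groups differed by 5.54 to 13.8 times. Both close pairs were averaged and each counted as 1 sample, although RCF 1 and 3 differed by more than spot noise. The values are the authors' log2 signals, and every difference is RCF minus ctr on the log2 scale. That left RCF 1+3, RCF 2 and RCF 4 against ctr 1, ctr 2+4 and ctr 3, with 3 samples a group. The labels do not say that every sample is a separate animal, so the spread between samples may be partly technical. Unless another fit is named, p-values and SE rest on the spread within groups, pooled over all 8 groups (27 samples with ctr 1). They do not rest on the spread of these samples alone, and the pool includes 5 samples of other groups with markers against their labels.

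DBA_mpFC_ctr 1 did not carry the markers of its label. Xist, which coats the inactive X in females, had log2 values of 9.83, 9.79 and 10.06 in RCF 1+3, RCF 2 and RCF 4, against 3.70, 9.73 and 10.06 in ctr 1, ctr 2+4 and ctr 3. Glo1, Gabra2, Alad and Hdhd3, genes that differ between the strains, averaged 12.30, 12.23 and 12.29 in the RCF samples, against 10.76, 12.28 and 12.44 in the ctr samples in the same order. On both measures ctr 1 stood alone, and the other 5 samples lay close together. Striatal projection neuron markers averaged 10.996, 10.88 and 10.95 in the RCF samples, against 12.63 in ctr 1 and 11.001 and 11.07 in the other ctr samples. Myelin and oligodendrocyte markers averaged 11.66, 11.15 and 11.44 in the RCF samples, against 12.66 in ctr 1 and 11.61 and 11.31 in the others. Counts, list medians and tests between groups are therefore given with ctr 1 and without it, and single genes with every sample's value.

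**Figure D1:**
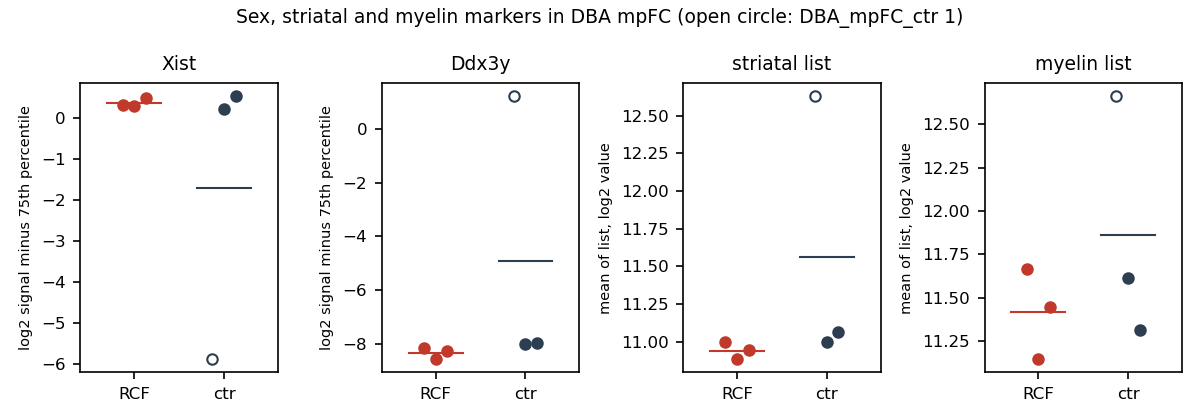
Sex, striatal and myelin markers in the DBA mpFC, with RCF samples left of ctr samples. The left panels plot Xist, expressed in females, and the Y-linked gene Ddx3y as log2 signals relative to the 75th percentile of their array, the right panels the mean log2 value of 17 striatal and 24 oligodendrocyte and myelin genes; points are samples, bars are group means, and the open circle is DBA_mpFC_ctr 1. The open circle lies apart from the other 5 samples in every panel.

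A second sample, RCF 4, stood apart in a smaller group of genes. Calb2, the calcium-binding protein calretinin, had log2 values of 7.11, 6.21 and 9.47 in RCF 1+3, RCF 2 and RCF 4, against 6.88, 6.16 and 6.69 in ctr 1, ctr 2+4 and ctr 3. The transcription factor Sp8, chosen after its values were seen, had 7.71, 7.38 and 10.72 in the RCF samples, against 9.26, 6.92 and 7.72 in the ctr samples. RCF 4 was thus the highest sample for both genes, which mark interneurons born in the ganglionic eminences and those of the olfactory bulb. Position on the glass also differed by group: all 8 arrays shared 1 slide and 1 scan, but ctr arrays lay in its columns 1 and 2 and RCF arrays in columns 3 and 4, so handling and slide column cannot be told apart in any result below. The members of each close pair shared a column. Between 73.6% and 81.9% of the probes on these arrays were well above background.

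No gene passed the test in this comparison. Over 25536 features, each the brightest probe of a gene or a probe without a gene name, limma called 0 (0%) at an adjusted p under 0.05, and the smallest adjusted p was 0.9999. At an unadjusted p under 0.05, 134 features were higher and 274 lower in RCF, 1.6% of those tested. Without ctr 1 limma again called 0, with 81 higher and 184 lower at an unadjusted p under 0.05, or 1.04%. The 2 DBA mpFC groups fitted alone also gave 0 calls, with 1101 features at an unadjusted p under 0.05 (4.31%), and without ctr 1 with 2843 (11.1%) and a smallest adjusted p of 0.251. In the wider set of 37549 features that includes dim probes, limma called 0, with 584 at an unadjusted p under 0.05 (1.56%), and without ctr 1 again 0, with 433 (1.15%).

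Groups that do not overlap were therefore read against their share over all features. In 5.18% of the 25536 features every RCF sample lay above every ctr sample, and in 6.08% every RCF sample lay below. Without ctr 1, which leaves 2 ctr samples, these shares were 12.5% and 17.4%. The genes named below are those with the smallest unadjusted p, and of the 28 chosen so 21 had groups that do not overlap, against 11.3% of all features, which their choice by the same values favours.

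Cx3cr1 and Adgre1, which are expressed by microglia, the resident immune cells of the brain, were among the 10 lower genes with the smallest unadjusted p. Cx3cr1, the receptor through which microglia sense fractalkine released by neurons, had log2 values of 12.03, 12.15 and 12.03 in RCF 1+3, RCF 2 and RCF 4, against 12.53, 12.36 and 12.81 in ctr 1, ctr 2+4 and ctr 3. All RCF samples lay below all ctr samples, and the spread was 0.07 in the RCF and 0.23 in the ctr group (SD, n = 3 each). The difference was −0.50 ± 0.13 (SE; limma, unadjusted p = 0.000763, adjusted p = 0.9999) and −0.51 ± 0.14 without ctr 1. In bulk tissue, fewer microglia and less Cx3cr1 RNA per cell cannot be told apart.

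Adgre1, which encodes the macrophage surface receptor F4/80, had log2 values of 7.65, 7.75 and 7.88 in the RCF samples, against 8.54, 7.97 and 8.30 in the ctr samples. The groups did not overlap, but RCF 4 and ctr 2+4 were close. The difference was −0.51 ± 0.16 with all samples (limma, unadjusted p = 0.00347) and −0.37 ± 0.16 without ctr 1. Laptm5, a lysosomal membrane protein of blood-derived and microglial cells, had 9.05, 8.68 and 9.16 in the RCF samples, against 9.28, 9.26 and 9.44 in the ctr samples, a difference of −0.37 ± 0.20 that was −0.39 ± 0.22 without ctr 1.

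The microglial list as a whole was mixed. Of its 21 measured genes 17 were lower by value with all samples (median −0.15, against −0.02 over all features, of which 54.7% were lower). Without ctr 1 it was 14 (median −0.05, against −0.03 over all features, of which 56% were lower). In 4 of the 21 (19%), Cx3cr1, Laptm5, Ctss and Aif1, all RCF samples lay below all ctr samples, against 6.08% of all features, and the last 2 were chosen after their values were seen. Without ctr 1 the count was again 4 (19%), close to the 17.4% of all features. In 2 of 21 genes (9.52%, against 12.5% of all features) the RCF samples lay all above. C1qc, a complement component, had 10.61, 10.53 and 10.82 in the RCF samples, against 11.68, 10.69 and 10.83 in the ctr samples. Tyrobp, an adaptor of microglial receptors, had 11.23, 11.33 and 11.31, against 12.02, 11.23 and 11.45. For both genes ctr 1 was the high sample, and without it the differences were −0.11 ± 0.20 and −0.05 ± 0.14, within their errors.

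**Figure D2:**
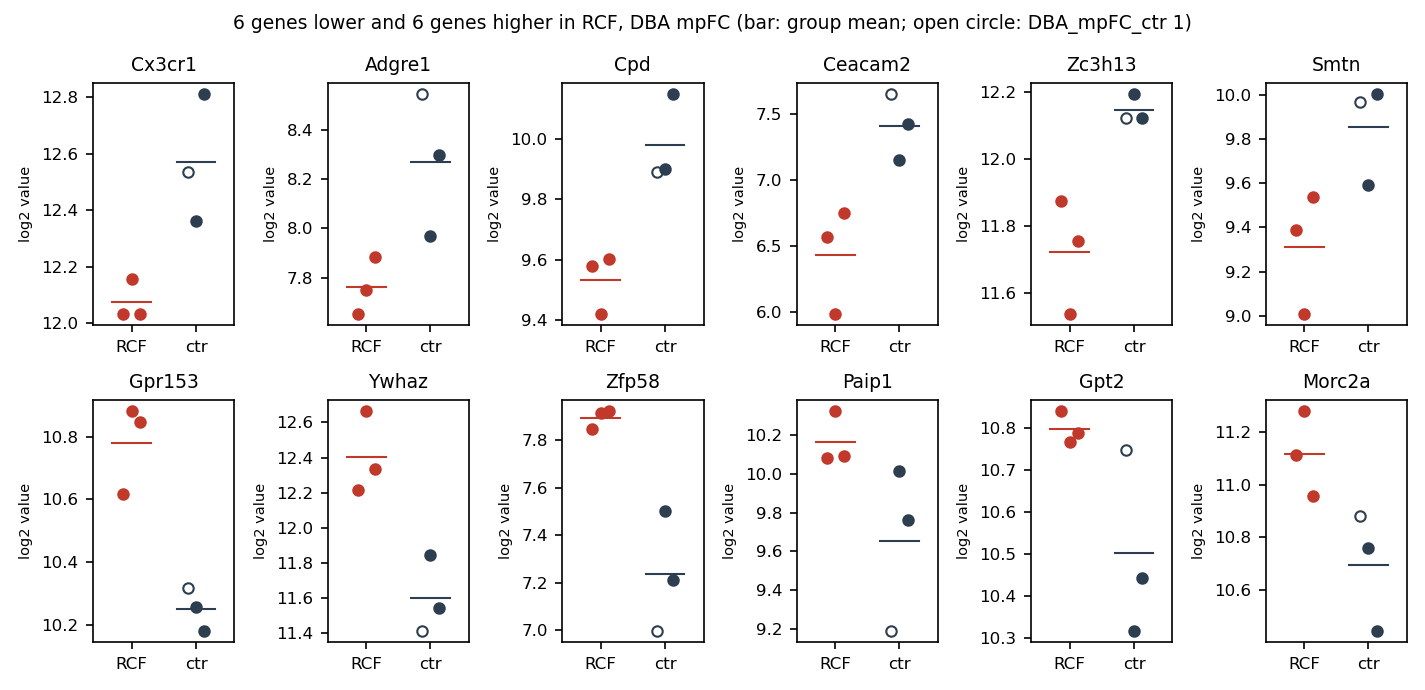
Log2 values of 6 genes lower (top row) and 6 genes higher (bottom row) in RCF, by sample in the DBA mpFC. Points are samples (n = 3 a group), bars group means, and the open circle DBA_mpFC_ctr 1; each panel has its own axis. In all 12 panels the RCF points lie on 1 side of the ctr points, and limma called none of these genes.

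Cpd, carboxypeptidase D, which trims peptides in the secretory pathway, had log2 values of 9.58, 9.42 and 9.60 in the RCF samples, against 9.89, 9.90 and 10.15 in the ctr samples. The groups did not overlap, and the difference was −0.45 ± 0.12 (limma, unadjusted p = 0.000797) or −0.49 ± 0.13 without ctr 1. With array weights, which let limma count a deviating array for less, Cpd passed with and without ctr 1. Zfp62, a zinc finger protein, passed under the same setting, with log2 values of 8.52, 8.47 and 8.59 in the RCF samples, against 8.73, 9.07 and 8.92 in the ctr samples (difference −0.38 ± 0.13, or −0.47 ± 0.14 without ctr 1).

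Ceacam2, a cell adhesion molecule, showed a wide gap on the lower side. It had log2 values of 6.57, 5.98 and 6.75 in the RCF samples, against 7.65, 7.15 and 7.42 in the ctr samples. RCF 2 was the lowest sample and the groups did not overlap. The difference was −0.97 ± 0.25 (limma, unadjusted p = 0.000756) and −0.85 ± 0.28 without ctr 1. Zc3h13, a subunit of the complex that writes N6-methyladenosine into messenger RNA, had 11.87, 11.54 and 11.75 in the RCF samples, against 12.12, 12.19 and 12.12 in the ctr samples. Its difference of −0.42 ± 0.12 changed little without ctr 1 (−0.44 ± 0.14).

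Smtn, a smooth muscle cytoskeletal protein, had log2 values of 9.39, 9.01 and 9.54 in the RCF samples, against 9.97, 9.59 and 10.004 in the ctr samples, a difference of −0.54 ± 0.16 (−0.49 ± 0.19 without ctr 1). Ptprb, the endothelial phosphatase that acts on VE-cadherin and TIE2, had 11.18, 10.54 and 11.51, against 12.02, 11.42 and 11.72, and here RCF 4 overlapped ctr 2+4 (−0.64 ± 0.20, or −0.49 ± 0.21 without ctr 1). Flt1, a VEGF receptor, had 12.11, 12.02 and 12.12 in the RCF samples, against 12.60, 12.29 and 12.46 in the ctr samples, with no overlap (−0.37 ± 0.13, or −0.29 ± 0.14 without ctr 1). Lims1, an adaptor of focal adhesions, differed by −0.46 ± 0.14, Grrp1 by −0.56 ± 0.17 and Bmpr1b, a BMP receptor, by −0.80 ± 0.26. Without ctr 1 these 3 differed by −0.34 ± 0.15, −0.38 ± 0.17 and −0.62 ± 0.28.

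Of 30 measured vessel and meninges genes 25 were lower by value in RCF with all samples (median −0.25) and 21 without ctr 1 (median −0.13), against medians of −0.02 and −0.03 over all features. For Smtn and Flt1, 2 of 30 (6.67%), all RCF samples lay below all ctr samples, near the 6.08% of all features. Without ctr 1 the count was 2 below, under the 17.4% of all features, and 2 above (6.67%, against 12.5% of all features). The list average was 9.30, 9.00 and 9.83 in the RCF samples, against 9.93, 9.46 and 9.84 in the ctr samples, so RCF 4 lay with ctr 1 and ctr 3. Myl9, the myosin light chain of smooth muscle, showed the same order, with 11.57, 11.27 and 12.25 against 12.58, 11.81 and 12.47. Cd93, an endothelial receptor, had 9.42, 9.15 and 9.77 in the RCF samples, against 10.15, 9.56 and 9.91 in the ctr samples. How much vessel and meninges the dissections held was not tested.

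On the higher side, Gpr153, an orphan receptor of the G protein-coupled class, had groups that did not overlap with or without ctr 1. It had log2 values of 10.62, 10.88 and 10.85 in the RCF samples, against 10.32, 10.26 and 10.18 in the ctr samples. The difference was 0.53 ± 0.18 (limma, unadjusted p = 0.00681) and 0.56 ± 0.20 without ctr 1 (limma, unadjusted p = 0.011). Ywhaz, the zeta form of the 14-3-3 adaptor proteins, had 12.22, 12.66 and 12.34 in the RCF samples, against 11.41, 11.85 and 11.55 in the ctr samples. Its groups did not overlap, and it differed by 0.80 ± 0.28, or 0.71 ± 0.31 without ctr 1. Zfp58, a zinc finger protein, had 7.85, 7.91 and 7.92, against 6.99, 7.50 and 7.21, a difference of 0.66 ± 0.23, or 0.54 ± 0.25 without ctr 1.

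Other genes on the higher side owed much of their difference to ctr 1. Pfn1, profilin, which binds monomeric actin, had log2 values of 11.46, 11.55 and 11.48 in the RCF samples, against 9.53 in ctr 1 and 11.22 and 10.92 in the other ctr samples. Its difference was 0.94 ± 0.30 with ctr 1 and 0.43 ± 0.23 without it. Pi4kb, a phosphatidylinositol 4-kinase, Tmco6, Prrc2c, the translation factor Paip1 and the ubiquitin ligase Ube3a, which neurons express from the maternal allele, also had their lowest value in ctr 1. Their differences of 0.83 ± 0.29, 0.85 ± 0.31, 0.58 ± 0.22, 0.51 ± 0.15 and 0.53 ± 0.19 became 0.35 ± 0.24, 0.42 ± 0.28, 0.25 ± 0.19, 0.28 ± 0.13 and 0.36 ± 0.20 without that sample. Tmem199, a factor in assembly of the vacuolar proton pump, had 11.61, 10.40 and 10.34 in the RCF samples, against 10.22, 10.28 and 10.26 in the ctr samples. Its difference of 0.53 ± 0.20 rested on RCF 1+3, and without that sample it was 0.11.

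Leaving out ctr 1 brought other genes to the front. Nfia, a transcription factor that promotes glial fate, had log2 values of 8.05, 7.71 and 7.72 in the RCF samples, against 7.84, 8.47 and 8.53 in the ctr samples. Ino80b, a subunit of the INO80 chromatin remodeller, had 9.55, 9.05 and 9.18, against 9.48, 10.02 and 9.71. In both genes ctr 1 lay among the RCF samples, and the differences without it were −0.67 ± 0.21 and −0.60 ± 0.18, against −0.45 ± 0.21 and −0.47 ± 0.17 with it.

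Gpt2, the mitochondrial alanine transaminase, had log2 values of 10.84, 10.77 and 10.79 in the RCF samples, against 10.75, 10.32 and 10.44 in the ctr samples. The groups did not overlap, and the difference was 0.42 ± 0.15 without ctr 1 and 0.30 ± 0.14 with it. Morc2a, which takes part in gene silencing with the HUSH complex, had 11.11, 11.28 and 10.96, against 10.88, 10.76 and 10.44. It differed by 0.51 ± 0.19 without ctr 1 and by 0.42 ± 0.17 with it. The RNA cleavage factor Cstf2 (0.68 ± 0.22) and the neuronal splicing factor Nova1 (0.90 ± 0.36) rested on a low value in ctr 3, and without ctr 3 as well their differences were 0.22 and 0.52.

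The Xlr genes were the family named in the study's title, and 3 of 14 listed members, Xlr4a, Xlr4b and Xlr3b, were among the 25536 features. They lie close together on the X chromosome, and which of the closely related copies a probe reads was not tested. Their promoter windows, 250 bases before to 50 after the start site, are shown because the 3 genes shared their highest and lowest sample. RefSeq (GRCm38.p6) held all 3, at chrX:73082458-73082757 on the minus strand for Xlr4a, chrX:73214083-73214382 on the plus strand for Xlr4b and chrX:73191929-73192228 on the plus strand for Xlr3b. Capitals mark CCAATCAG, an extended CCAAT box, read 5′ to 3′ on the gene's strand.
Xlr4a: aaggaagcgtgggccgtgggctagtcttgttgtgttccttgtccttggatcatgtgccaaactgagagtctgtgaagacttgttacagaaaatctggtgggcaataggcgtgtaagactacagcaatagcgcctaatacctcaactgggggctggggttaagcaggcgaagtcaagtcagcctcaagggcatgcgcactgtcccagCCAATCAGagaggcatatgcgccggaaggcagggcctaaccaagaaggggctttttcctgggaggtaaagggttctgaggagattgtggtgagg
Xlr4b: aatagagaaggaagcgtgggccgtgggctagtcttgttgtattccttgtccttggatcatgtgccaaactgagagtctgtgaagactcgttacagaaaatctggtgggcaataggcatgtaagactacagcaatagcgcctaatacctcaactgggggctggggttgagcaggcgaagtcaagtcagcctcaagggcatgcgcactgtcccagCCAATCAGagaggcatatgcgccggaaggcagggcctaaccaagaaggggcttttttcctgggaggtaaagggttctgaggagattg
Xlr3b: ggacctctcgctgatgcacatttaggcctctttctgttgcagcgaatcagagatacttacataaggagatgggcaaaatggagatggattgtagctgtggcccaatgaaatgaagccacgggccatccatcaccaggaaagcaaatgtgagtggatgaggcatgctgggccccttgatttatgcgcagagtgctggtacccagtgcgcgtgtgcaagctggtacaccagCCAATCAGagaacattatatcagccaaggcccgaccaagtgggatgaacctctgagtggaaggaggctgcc

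CCAATCAG was found once in each window, beginning 44, 37 and 21 bases before the start site of Xlr4a, Xlr4b and Xlr3b. Searched on both strands, it was present in 4.1% of 32851 promoter windows of the same length, and CCAAT alone, which it contains, in 37.4%. The Xlr4a and Xlr4b windows were identical at 288 of 293 aligned positions (98.3%). The match describes these letters only.

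In the DBA mpFC the Xlr genes varied widely within each group. Xlr4a had log2 values of 4.88, 7.70 and 6.95 in RCF 1+3, RCF 2 and RCF 4, against 6.62, 4.05 and 4.84 in ctr 1, ctr 2+4 and ctr 3. RCF 2 was highest, RCF 1+3 lay with the 2 lower ctr samples, and the groups overlapped through ctr 1. The difference was 1.34 ± 0.74 (limma, unadjusted p = 0.082), and without ctr 1 it was 2.06 ± 0.77 (limma, unadjusted p = 0.0134, adjusted p = 1.00), with RCF 1+3 just above ctr 3.

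Xlr4b had log2 values of 5.68, 8.39 and 6.47 in the RCF samples, against 6.59, 4.97 and 5.27 in the ctr samples, in nearly the same order as Xlr4a. Its difference was 1.24 ± 0.68 and without ctr 1 1.73 ± 0.74. Xlr3b had 8.41, 9.94 and 8.11, against 9.22, 7.47 and 8.35, and its groups overlapped with and without ctr 1. RCF 2 was the highest of the 6 samples in all 3 genes and ctr 2+4 the lowest, so without RCF 2 the differences were 0.74 for Xlr4a, 0.47 for Xlr4b and −0.08 for Xlr3b, and without ctr 2+4 they were 0.78, 0.92 and 0.04. A second Xlr4a probe had a difference of 0.51 with all samples and 0.58 without ctr 1.

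Other family members were dim. Xlr3a was well above background on 2 of 4 RCF arrays and 1 of 4 ctr arrays, and Xlr5b on 1 of 4 arrays in each group. Xlr5a was well above background on all 8 arrays and differed by −0.37 ± 0.49, or −0.21 without ctr 1. The brighter probe of Xlr was also above background on all 8 and differed by 0.06 ± 0.24, or 0.09 without ctr 1.

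**Figure D3:**
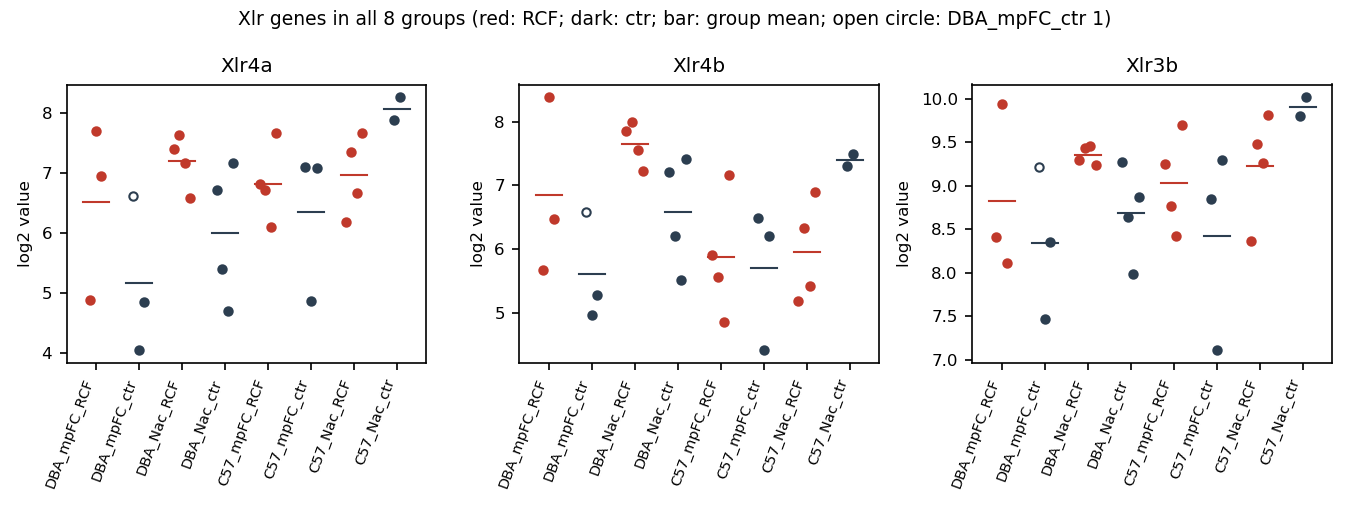
Log2 values of Xlr4a, Xlr4b and Xlr3b by sample in all 8 groups of the series, each RCF group left of its ctr group. Points are samples, bars group means, and the open circle is DBA_mpFC_ctr 1. In the DBA mpFC, Xlr4a ran from 4.88 to 7.70 in RCF and from 4.05 to 6.62 in ctr samples.

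The same genes were set beside the other groups of the series, which share no sample with this comparison. In those groups 5 samples also had strain or tissue markers that went against their labels. In the DBA Nac, Xlr4a averaged 7.20 ± 0.45 in RCF and 5.99 ± 1.14 in ctr samples (SD, n = 4 each), and in the C57 mpFC 6.82 ± 0.64 in RCF (SD, n = 4) and 6.35 ± 1.28 in ctr samples (SD, n = 3). In the C57 Nac Xlr4a went the other way, with 6.97 ± 0.67 in RCF (SD, n = 4) and 8.07 ± 0.27 in ctr samples (SD, n = 2). Without the doubtful samples Xlr4a averaged 5.60 ± 1.03 in the ctr samples of the DBA Nac (SD, n = 3), and 6.82 ± 0.79 in RCF (SD, n = 3) and 5.98 ± 1.57 in ctr samples (SD, n = 2) of the C57 mpFC. In the C57 Nac it then averaged 7.23 ± 0.51 in RCF (SD, n = 3) and was 8.26 in the ctr group (n = 1). Cx3cr1 averaged 12.10 ± 0.14 in RCF and 12.08 ± 0.22 in ctr samples of the DBA Nac (SD, n = 4 each). Both of its Nac averages thus lay near the RCF average of the DBA mpFC, 12.07 ± 0.07, while the C57 mpFC had 12.62 ± 0.08 in RCF (SD, n = 4) and 12.62 ± 0.17 in ctr samples (SD, n = 3), near the ctr average of the DBA mpFC, 12.57 ± 0.23. Without the doubtful samples those Cx3cr1 averages were 12.05 ± 0.25 in DBA_Nac_ctr, 12.65 ± 0.03 in C57_mpFC_RCF and 12.70 ± 0.16 in C57_mpFC_ctr samples. The DBA mpFC, DBA Nac, C57 mpFC and C57 Nac arrays each lay on a slide of their own with a scan of its own. Levels compared between them therefore cannot tell region or strain apart from slide and scan.

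Whether the response differed between regions or strains was tested directly. For the difference in the DBA mpFC minus that in the DBA Nac, limma called 0 features, with 79 higher and 118 lower at an unadjusted p under 0.05 (0.771%). Against the C57 mpFC it called 0, with 136 higher and 168 lower (1.19%). Without ctr 1 limma called 0 in both tests, with 121 (0.474%) and 218 features (0.854%) at an unadjusted p under 0.05. Among the named genes Ceacam2 differed between regions by −1.32 ± 0.33 (limma, unadjusted p = 0.000598, adjusted p = 1.00), Cx3cr1 by −0.51 ± 0.17 and Cpd by −0.42 ± 0.15. Without ctr 1 these were −1.20 ± 0.35, −0.52 ± 0.18 and −0.47 ± 0.16. Xlr4a differed between regions by 0.13 ± 0.97, and without ctr 1 by 0.86 ± 0.97, both within the error. Across the 25536 features, which are not independent, the DBA mpFC difference had a correlation of 0.279 with that in the DBA Nac and of 0.048 with that in the C57 mpFC, and without ctr 1 of 0.257 and 0.216. Leaving out the 5 doubtful samples of the other groups as well gave 0.277 and 0.199, and limma still called 0 features in both tests of a difference between responses. In the C57 mpFC, too, ctr arrays lay in slide columns 1 and 2 and RCF arrays in columns 3 and 4. The DBA Nac had the same layout except for DBA_Nac_ctr 4 in column 4 and DBA_Nac_RCF 3 in column 2. The part of slide column in these correlations was not tested.

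Gene lists of the tissue were then described by their counts and medians, beside the medians over all features of −0.02 with all samples and −0.03 without ctr 1. In the chromatin list, 26 of 45 genes were higher by value (median 0.03), and in 5 of them, Dnmt1, Atrx, Ep300, Tet2 and Hdac4, all RCF samples lay above all ctr samples (the last 2 named after their values were seen). That is 11.1%, against 5.18% of all features, and 1 gene (2.22%, against 6.08% of all features) lay all below. Without ctr 1, 27 of 45 were higher (median 0.07), with 10 all above (22.2%, against 12.5% of all features) and 3 all below (6.67%, against 17.4%). Differences in the list ran from −0.28 to 0.47 with all samples and from −0.60 to 0.45 without ctr 1. Suv39h1, described at the end, was the lowest both times. Dnmt1, the maintenance DNA methyltransferase, had log2 values of 9.31, 9.49 and 9.44 in the RCF samples, against 9.06, 9.21 and 9.02 in the ctr samples, a difference of 0.32 ± 0.15, or 0.30 ± 0.16 without ctr 1. Atrx, an X-linked chromatin remodeller, had 10.37, 10.70 and 10.54, against 10.33, 10.20 and 9.99. Ep300, a histone acetyltransferase, had 8.76, 8.99 and 9.01, against 8.73, 8.69 and 8.55. The gaps between the groups were small in all 3 genes, and Kdm6a, a histone demethylase, overlapped (8.72, 8.98 and 8.87 against 8.31, 8.76 and 8.60).

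In the stress axis list 12 of 23 genes were higher and 11 lower by value (median 0.02), and without ctr 1 16 were higher and 7 lower (median 0.07). With all samples, all RCF samples lay above all ctr samples in 1 gene (4.35%, against 5.18% of all features). They lay below in 2 (8.7%, against 6.08%). Without ctr 1 they lay above in 4 (17.4%, against 12.5% of all features) and below in 2 (8.7%, against 17.4%). Nr3c2, the mineralocorticoid receptor, had log2 values of 6.64, 6.54 and 6.67 in the RCF samples, against 7.01, 7.04 and 7.04 in the ctr samples. The groups did not overlap and each was tight, yet the difference of −0.41 ± 0.28 was within the error that limma estimated over all 8 groups (unadjusted p = 0.158). Fitted on the 2 DBA mpFC groups without ctr 1, it had an unadjusted p of 0.0108 by limma. In that fit 11.1% of all features had an unadjusted p under 0.05, and limma called 0. Nr3c1, the glucocorticoid receptor, had 13.37, 13.18 and 12.998, against 13.41, 13.33 and 13.27, and overlapped. Errfi1, a feedback inhibitor of the EGF receptor, had 11.67, 11.50 and 11.50, against 11.72, 11.74 and 11.95.

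Immediate early genes, which neurons switch on with activity, were lower by value in 14 of 22 with all samples (median −0.08) and in 9 without ctr 1 (median 0.11). Jun had log2 values of 12.09, 11.92 and 12.05 in the RCF samples, against 12.16, 12.51 and 12.29 in the ctr samples, with no overlap. Sik1, an activity-induced kinase, had 7.27, 7.01 and 7.32, against 8.42, 7.34 and 7.53, and ctr 1 was its high sample.

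Cell-type lists showed where ctr 1 carried a difference. Of 24 oligodendrocyte and myelin genes 23 were lower by value with all samples (median −0.45) and 14 without ctr 1 (median −0.03). Mal, a myelin membrane protein, had log2 values of 12.24, 11.44 and 11.70 in the RCF samples, against 14.42, 12.28 and 11.58 in the ctr samples, and Opalin had 8.40, 7.35 and 7.32, against 9.64, 8.55 and 7.64. All 17 striatal genes were lower with all samples (median −0.49) and 13 without ctr 1 (median −0.09). Rgs9, a striatal regulator of dopamine signalling, had 10.36, 10.08 and 10.32 in the RCF samples, against 13.76, 10.60 and 10.32 in the ctr samples, which places its difference in ctr 1.

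Of 22 measured interneuron genes, 16 were higher by value with all samples (median 0.13) and 17 without ctr 1 (median 0.15). With all samples, 2 of 22 (9.09%) had RCF samples all above the ctr samples, against 5.18% of all features, and 0 all below. Without ctr 1, 6 of 22 (27.3%) had RCF samples all above the ctr samples, against 12.5% of all features, and 0 all below. Npy, neuropeptide Y, had log2 values of 13.25, 12.82 and 12.98 in the RCF samples, against 12.78, 12.78 and 12.59 in the ctr samples. Kcnc1, a fast potassium channel of interneurons, had 11.77, 11.89 and 11.70, against 11.36, 11.63 and 11.60. The list average was 10.998, 11.02 and 11.47 in the RCF samples, against 11.17, 10.83 and 11.01 in the ctr samples, with RCF 4, the sample with the high Calb2, at the top. The part of that sample in the list's counts was not tested.

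Ribosomal and mitochondrial genes had small differences that depended on ctr 1. Of 67 cytosolic ribosomal protein genes 63 were lower by value without ctr 1 (median −0.14), and in 44 of them (65.7%) all RCF samples lay below both ctr samples, against 17.4% of all features. With ctr 1 the median was −0.02, and all RCF samples lay below all ctr samples in 3 of 67 (4.48%, against 6.08% of all features). Rps3 had log2 values of 13.51, 13.61 and 13.45 in the RCF samples, against 13.97, 13.75 and 13.83 in the ctr samples. Rps26 had 15.17, 15.08 and 15.04, against 15.08, 15.29 and 15.52, so that ctr 1 lay among the RCF samples. Of 52 oxidative phosphorylation genes 46 were lower without ctr 1 (median −0.12) and 27 with it (median −0.01). Cox7c, a subunit of cytochrome c oxidase, had 14.24, 14.17 and 14.00 in the RCF samples, against 14.22, 14.51 and 14.44 in the ctr samples. These genes sit near the top of the signal range, and quantile normalization reduced the ribosomal median without ctr 1 to −0.06.

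**Figure D4:**
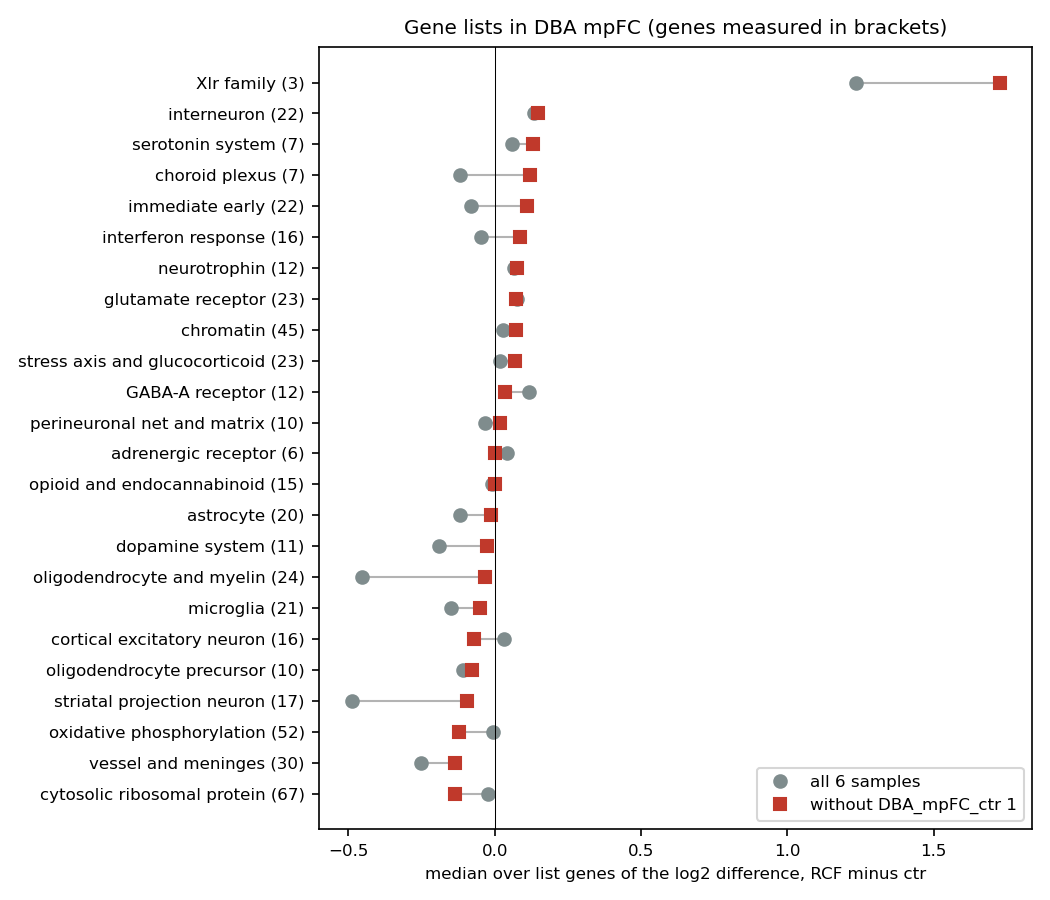
Median log2 difference of each gene list, RCF minus ctr in the DBA mpFC, with the number of genes measured in brackets. Grey circles use all 6 samples and red squares leave out DBA_mpFC_ctr 1, and a line joins the values of a list. The striatal and myelin lists move from −0.49 and −0.45 to −0.09 and −0.03, and the Xlr list from 1.24 to 1.73.

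The other lists are given by their medians. With all samples, the median difference was −0.11 for oligodendrocyte precursor, −0.12 for astrocyte, −0.12 for choroid plexus and 0.03 for cortical excitatory neuron genes. It was −0.19 for dopamine, 0.06 for serotonin, 0.04 for adrenergic, 0.08 for glutamate receptor and 0.12 for GABA-A receptor genes. It was 0.07 for neurotrophin, −0.01 for opioid and endocannabinoid, −0.03 for perineuronal net and −0.05 for interferon response genes. Without ctr 1, each of these 13 medians lay between −0.08 and 0.13. The 4 measured genes higher in the DBA strain had a median of 0.46 with ctr 1 and −0.09 without it, and of the list higher in C57 and the Y-linked list 0 genes were among the features.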

How the data were processed

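RNA of each sample was labelled with Cy3 and hybridised to a 1-colour Agilent mouse array. The authors deposited a matrix of log2 values of 30067 probes with the same 75th percentile in every column, and scanner files with an intensity per spot from Agilent Feature Extraction 10.7.3.1, per the file headers (design build mm9). The submitters' processing notes name Agilent Feature Extraction and limma without saying for what step. Matrix columns were taken by sample title. For 29 of 31 samples the column equalled the scanner file listed with another sample, so each file was given the sample of the column it equals (lowest correlation 0.999994, highest with any other column 0.998).

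Near-identical arrays were averaged (27 samples in 8 groups) and the brightest probe per gene symbol was kept. Differences were tested with limma 3.58.1 in R 4.3.3 (8 group means, intensity trend, Benjamini-Hochberg over all features, threshold 0.05). Tables and figures used Python 3.11.15, pandas 2.3.3 and matplotlib 3.10.9. The test was checked on simulated data. The precision is limited by 3 samples a group.

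Named genes were, in each direction, the 10 with the smallest p with all samples and the 6 with the smallest p without DBA_mpFC_ctr 1, up to 4 per list by p, and all Xlr, strain, X inactivation and Y-linked genes measured. Members and the 28 lists were chosen with earlier results of these data known. The labels do not say that replicate numbers pair samples. Deviations from group means had correlations of −0.34 to 0.17 between arrays of the same number and −0.43 to 0.31 between others. These arrays include ctr 1 and both close pairs, so the correlations cannot settle whether numbers pair samples.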

Additional observations from a re-analysis of the deposited data

Results flagged for a closer look

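Signal of the Y-linked genes Ddx3y, Eif2s3y, Kdm5d and Uty was present in DBA_mpFC_ctr 1, on probes outside the tested matrix. On these probes no other array of the DBA mpFC was well above background. On the log2 scale, relative to the 75th percentile of each array, the RNA helicase Ddx3y was at 1.21 in ctr 1, against −7.95 at most in the other 5 samples, and the translation factor Eif2s3y at 1.92 against −6.72. The demethylases followed at lower level, with Kdm5d at −5.60 against −8.10 and the probes of Uty at −3.93 against −6.88 and −3.83 against −7.99. The other listed Y-linked genes did not share this pattern. Sry, well above background on all 7 other arrays, was at −4.40 in ctr 1, against −4.43 to −4.15 in the other samples. Zfy1, well above background on 4 other arrays, was at −5.32, against −5.58 at most. Usp9y and Zfy2 were well above background on 0 arrays of the DBA mpFC. All samples are labelled female. No sample is named an outlier here, since groups of 3 were not tested for outliers.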

How the results depend on the processing

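The count of called features was 0 in the comparison with all samples, without ctr 1 and with dim probes, and stayed 0 in most settings. With array weights limma called 3, 6 and 11 features in those 3 comparisons, all lower in RCF except 1 of the 11. Leaving out each sample in turn gave 0 to 0 calls with all samples and 0 to 2 without ctr 1, where the 2 came without ctr 3. With the slide row as a block, chosen after seeing the data, 121 features were called without ctr 1. In that fit the close pairs were not averaged, so near-identical arrays were counted as separate samples. The slide column could not be used as a block, since no column held both groups. Normexp used the median spot signal. The tests of a difference between regions and between strains called 0 with all samples in every setting run, except that between strains with the scanner files as listed, which called 3200. Without ctr 1, the test between strains called 2222 with the files as listed, and leaving out each RCF sample gave 0 calls in both tests. For these tests, the files as listed and the settings without ctr 1 were added after seeing the data.

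With the replicate number as a block, 0 features were called with all samples and 5 without ctr 1. The close pairs were not averaged in this fit either. Whether the numbers pair the samples was not settled by the correlations given above.

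Scanner files taken as listed, before matching them to the matrix columns, gave 5777 calls with all samples and 3770 without ctr 1. The files listed with RCF equal DBA Nac columns and those listed with ctr equal C57 Nac columns. Of 1680 pairs of a gene and a setting 43 had the opposite direction, 41 of them with the files as listed. With all samples these were Gpr153 (−0.05), Ywhaz (−0.18), Ceacam2 (0.14), Cpd (0.17), Zc3h13 (0.15), Smtn (0.0128), Cstf2 (−0.22), Morc2a (−0.22), Xlr4a (−0.61), Xlr3b (−0.26), Zfp62 (0.20), Laptm5 (0.13), Cd93 (0.16), Myl9 (0.38), Dnmt1 (−0.10), Kdm6a (−0.0503), Atrx (−0.65), Ep300 (−0.33), Nr3c2 (0.47), Errfi1 (0.0444), Rps26 (0.57). Without ctr 1 they were Ywhaz (−0.15), Ceacam2 (0.10), Cpd (0.15), Zc3h13 (0.24), Smtn (0.0432), Ptprb (0.0047), Cstf2 (−0.21), Morc2a (−0.16), Xlr4a (−0.46), Xlr3b (−0.10), Zfp62 (0.31), Laptm5 (0.28), Cd93 (0.20), Myl9 (0.31), Dnmt1 (−0.0097), Atrx (−0.46), Ep300 (−0.28), Nr3c2 (0.44), Jun (0.0495), Rps26 (0.57). The other 2 were Xlr3b with all samples when RCF 2 was left out, and Tyrobp without ctr 1 when ctr 3 was left out. Leaving out 1 sample at a time gave −0.0801 to 0.913 for Xlr3b and −0.157 to 0.0646 for Tyrobp, which was −0.0657 without RCF 2. With 3 samples a group, small differences were not detectable.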

Other observations

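A few short structured RNAs and the histone genes, which were in no list, were chosen after their values were seen. In the 3 short RNAs given here, all RCF samples lay below ctr 2+4 and ctr 3 but not below ctr 1. Rnu2-10, an RNA of the U2 spliceosomal particle, had log2 values of 8.44, 8.12 and 8.67 in RCF 1+3, RCF 2 and RCF 4, against 8.42 in ctr 1 and 10.01 and 9.43 in ctr 2+4 and ctr 3. Rnu1b6, of the U1 particle, had 13.02, 12.90 and 13.35 in the RCF samples, against 12.91, 13.82 and 13.74 in the ctr samples. Snora74a, which guides pseudouridine formation, had 8.40, 8.09 and 8.22, against 7.92, 9.41 and 8.93. Of 32 replication-dependent histone genes, 26 were lower by value without ctr 1 (median −0.15). In 17 of the 32 all RCF samples lay below both ctr samples, against 17.4% of all features. In 2 of the 32 they lay above both, against 12.5% of all features. With ctr 1, all RCF samples lay below all ctr samples in 3 of 32, against 6.08% of all features.

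Suv39h1, a histone methyltransferase that marks heterochromatin, behaved likewise, with log2 values of 8.69, 8.55 and 8.58 in the RCF samples, against 8.24 in ctr 1 and 9.26 and 9.15 in the other ctr samples. It belongs to the chromatin list and was also chosen after its values were seen.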
